A study of Homo sapiens with 5 samples.

Results

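The 10 genes described here encode immune checkpoint ligands, the don't-eat-me signal CD47 and enzymes that make immunosuppressive adenosine or kynurenine. They are CD274 (PD-L1), PDCD1LG2 (PD-L2), CD276 (B7-H3), VTCN1 (B7-H4), CD47, NT5E (CD73), ENTPD1 (CD39), PVR (CD155), LGALS9 (galectin-9) and IDO1. They were listed by symbol, with earlier results of these data known. For each symbol the row with the highest mean FPKM was taken from a table of 37181 rows, each of which is a gene or an assembled locus. FPKM, a fragment count scaled for transcript length and library size, is a level per length, so levels of different genes can be set side by side. Of the 10 genes, 9 had a row under their own symbol, and 6 of these reached the mean of 0.5 FPKM that was required for a test.

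HCC827 is a human lung adenocarcinoma cell line labelled as carrying an exon 19 deletion, which in this line lies in the gefitinib target EGFR. HCC827/GR cells came from it through stepwise gefitinib exposure lasting over 6 months and carry the same labelled genotype. Replicates 1, 2 and 3 of HCC827/GR cells, labelled gefitinib resistant, were compared by RNA sequencing with replicates 2 and 3 of parental HCC827 cells, labelled gefitinib sensitive. All 5 libraries came from this 1 line and its 1 resistant derivative, and the labels state neither whether the derivative is a clone nor whether the replicates were separate cultures, so the p-values measure only the spread between these libraries, which may be technical. No immune cells, age or batch is given in the labels.

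Checkpoint ligands sit on tumour cells and dampen lymphocytes or phagocytes by binding receptors on them. PD-L1 and PD-L2 bind PD-1 on T cells, PVR binds TIGIT and CD226, and CD47 binds SIRPα on macrophages. CD39 cuts extracellular ATP and ADP to AMP, CD73 cuts AMP to adenosine, and adenosine signals through receptors of the ADORA family. IDO1 turns tryptophan into kynurenine, a ligand of the aryl hydrocarbon receptor. Interferon signalling is a well-known inducer of CD274 and IDO1 in tumour cells.

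In these libraries NT5E had the largest difference among the members tested, at 7.39-fold lower mean FPKM in HCC827/GR cells. CD274 was also lower in all 3 HCC827/GR libraries than in both HCC827 libraries, and the locus that holds LGALS9 was higher in all 3. CD276, CD47 and PDCD1LG2 overlapped between the groups. By limma across all 16189 rows tested, 0 of the 6 tested members had an adjusted p under 0.05 (with Benjamini-Hochberg adjustment), and 3 had an unadjusted p under 0.05. A Ballgown-style model with a library-size covariate also called 0. Over all rows tested, 11% passed an adjusted p of 0.05, 5.26% higher and 5.71% lower in HCC827/GR cells. The share of all rows with an unadjusted p under 0.05 was not counted. Such values were common, since the limma p of 0.0447 for CD274 carried an adjusted p of 0.173.

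The base sequence upstream of CD274 is shown first, because CD274 is the gene through which tumour cells are best known to engage PD-1 and its upstream region is where interferon-responsive factors bind. The stretch of 211 bases ends at the base before the first annotated start, on the plus strand at chr9:5450292-5450502 of GRCh38.p14, and comes from RefSeq. Capitals mark motif matches. They are, in order, 2 overlapping matches to the ISRE letters GAAANNGAA on the minus strand, which begin at bases 44 and 50 of the stretch, 1 match to the GAS letters TTCNNNGAA at base 126, and 1 match to the GC box GGGCGG at base 188.
CD274 upstream: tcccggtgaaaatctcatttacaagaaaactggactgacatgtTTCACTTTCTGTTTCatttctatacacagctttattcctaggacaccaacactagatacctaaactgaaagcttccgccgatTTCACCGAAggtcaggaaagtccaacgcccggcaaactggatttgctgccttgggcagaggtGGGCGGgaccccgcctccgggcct
Both strands were searched. Each of 35116 promoter windows was cut to its first 211 bases, which for other genes need not end at the annotated start. Of these cut windows, 5.81% held the ISRE letters, 5.75% the GAS letters and 37.5% the GC box. None of the letters TGANTCA (AP-1), GGGNNNTTC (NF-κB), ACGTG (hypoxia), CACCTG (an E-box of ZEB and SNAI factors) or TATAAA was found in the stretch, and these were present in 5.67%, 11.3%, 15.6%, 15.5% and 7.88% of the windows. A match is a run of letters and not a shown binding site.

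CD274 lies on chromosome 9 at 5450503-5470566 on the plus strand (GENCODE 29, GRCh38), and all 5 transcripts of its row belong to it. Its level was 1.68 and 2.57 FPKM in HCC827 replicates 2 and 3, and 0.296, 1.23 and 1.01 FPKM in HCC827/GR replicates 1, 2 and 3. The groups did not overlap, and HCC827/GR replicate 1 was the lowest library. The mean was 2.13 ± 0.627 FPKM (SD, n = 2) in HCC827 and 0.845 ± 0.488 FPKM (SD, n = 3) in HCC827/GR cells, a 2.52-fold lower mean. On the log2(FPKM + 1) scale, which understates changes of low genes, the difference was -0.78 (SE 0.29, 95% interval -1.54 to -0.03) with a limma p of 0.0447 and an adjusted p of 0.173. The unadjusted p was under 0.05 in only 1 of the 5 fits that left out a library, and it reached 0.221. The level of CD274 stood at the 31.1 percentile of the rows tested, so it was a low transcript in both cell groups. In bulk RNA, fewer cells that express a gene and less of its RNA per cell cannot be told apart.

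PDCD1LG2 begins 60.1 kb after the start of CD274 on the same strand, at 5510570-5571254 of chromosome 9, and is the second PD-1 ligand. It measured 0.385 and 1.09 FPKM in HCC827 cells and 1.01, 0.844 and 1.34 FPKM in HCC827/GR cells. The groups overlapped, with HCC827 replicate 2 the lowest library. The log2 difference was 0.27 (SE 0.23, 95% interval -0.33 to 0.87; adjusted p = 0.517), and it was -0.03 without that library. The FPKM of CD274 was 4.38 and 2.36 times that of PDCD1LG2 in the HCC827 libraries and 0.294, 1.46 and 0.753 times in the HCC827/GR libraries. The ratio was therefore lower in every HCC827/GR library, although PDCD1LG2 alone did not separate the groups.

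CD276 is a B7 family protein that is abundant on many carcinomas. It was expressed far above both PD-1 ligands, at 14.4 and 16.4 FPKM in HCC827 cells and 16.2, 19.8 and 6.998 FPKM in HCC827/GR cells, which placed it at the 89.4 percentile of levels. HCC827/GR replicate 3 was the lowest of the 5 libraries and replicate 2 the highest. The log2 difference of -0.20 (SE 0.44, 95% interval -1.35 to 0.95; adjusted p = 0.820) turned to 0.21 without HCC827/GR replicate 3. The interval reaches past a halving on this scale and ends just short of a doubling. CD276 exceeded CD274 by 8.53 and 6.36 times in the HCC827 libraries and by 54.6, 16.1 and 6.94 times in the HCC827/GR libraries.

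VTCN1, a related inhibitory B7 protein, was under the minimum for testing. Its level was 0.997 and 0.268 FPKM in HCC827 cells and 0.147, 0.284 and 0.112 FPKM in HCC827/GR cells. HCC827 replicate 2 stood above the other 4 libraries, and HCC827 replicate 3 lay inside the range of the HCC827/GR cells.

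CD47, which signals to phagocytes not to engulf a cell, was the steadiest of the abundant members. It measured 16.6 and 16.9 FPKM in HCC827 cells and 12.3, 17.1 and 14.97 FPKM in HCC827/GR cells. The groups overlapped, since HCC827/GR replicate 2 was the highest library. The log2 difference was -0.18 (SE 0.15, 95% interval -0.58 to 0.22; adjusted p = 0.516), an interval that leaves out a doubling or halving on this scale.

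NT5E, the enzyme that produces adenosine from AMP at the cell surface, lies on chromosome 6 at 85449584-85495791. It measured 25.7 and 55.7 FPKM in HCC827 replicates 2 and 3, and 2.78, 3.11 and 10.6 FPKM in HCC827/GR replicates 1, 2 and 3. Both HCC827 libraries stood above all 3 HCC827/GR libraries, and the libraries of each group also differed widely among themselves. The mean was 40.7 ± 21.2 FPKM (SD, n = 2) in HCC827 and 5.51 ± 4.45 FPKM (SD, n = 3) in HCC827/GR cells. The log2 difference was -2.78 (SE 0.63, 95% interval -4.42 to -1.15) with a limma p of 0.00745 and an adjusted p of 0.0596. The adjusted p ran from 0.0419 to 0.233 over the alternatives and was under 0.05 only without HCC827/GR replicate 3, at a difference of -3.30. With the fold taken on the log2(FPKM + 1) scale, NT5E was the only member past the study's thresholds of a 2-fold change and an unadjusted p of 0.05. It stayed past them in 4 of the 5 fits that left out a library, and without HCC827 replicate 3 its limma p was 0.0617. Over all rows tested, 3.97% passed these thresholds lower and 2.96% higher in HCC827/GR cells. With the fold taken from the mean FPKM, chosen after the values were seen, CD274 passed the same thresholds as well, and 7.42% of all rows tested passed them lower and 5.68% higher. Only 0.259% of the rows tested had a difference at or below that of NT5E.

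ENTPD1 encodes the enzyme upstream of CD73. The row under its symbol held 1 assembled transcript, no reference transcript, and was listed at 0 in all 5 libraries. Of the 13 ENTPD1 transcripts of GENCODE, 1 was in a row named CC2D2B, which measured 0.136 and 0.167 FPKM in HCC827 and 0.198, 0.233 and 0.216 FPKM in HCC827/GR cells and joins other genes. No level of ENTPD1 itself can be given from these rows.

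PVR had no row under its own symbol. After the values were seen, its 6 transcripts were found in a row named CEACAM19, which joins 15 transcripts of PVR, CEACAM19 and AC243964.3. That row measured 6.39 and 6.74 FPKM in HCC827 cells and 8.94, 9.31 and 8.27 FPKM in HCC827/GR cells, all 3 above both HCC827 libraries. The mean was 6.56 ± 0.245 FPKM (SD, n = 2) against 8.84 ± 0.527 FPKM (SD, n = 3), with a log2 difference of 0.38 (SE 0.09, 95% interval 0.13 to 0.62; adjusted p = 0.0753). The share of PVR in this row was not tested.

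LGALS9 encodes a galectin that binds TIM-3, the product of HAVCR2. Its row joined 27 transcripts, of which 7 belong to LGALS9 and most others to KSR1, so the level is that of the joined locus. It was 0.817 and 0.695 FPKM in HCC827 cells and 1.75, 1.43 and 1.35 FPKM in HCC827/GR cells. Every HCC827/GR library stood above both HCC827 libraries. The mean was 0.756 ± 0.0857 FPKM (SD, n = 2) against 1.51 ± 0.211 FPKM (SD, n = 3). The log2 difference was 0.51 (SE 0.13, 95% interval 0.19 to 0.84) with a limma p of 0.0104 and an adjusted p of 0.0724. After quantile normalization it was 0.58 with an adjusted p of 0.0406.

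IDO1 was listed at 0.215 and 0.251 FPKM in HCC827 cells and at 0 in the 3 HCC827/GR libraries. It was under the minimum for testing, and no fold can be given against a group listed at 0. Without that minimum, its log2(FPKM + 1) difference was -0.30 with an adjusted p of 0.0189 by limma. A listed value of 0 may also be a failed estimate, which was not tested. Between 8896 and 9803 rows were listed at 0 in each library.

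**Figure D1:**
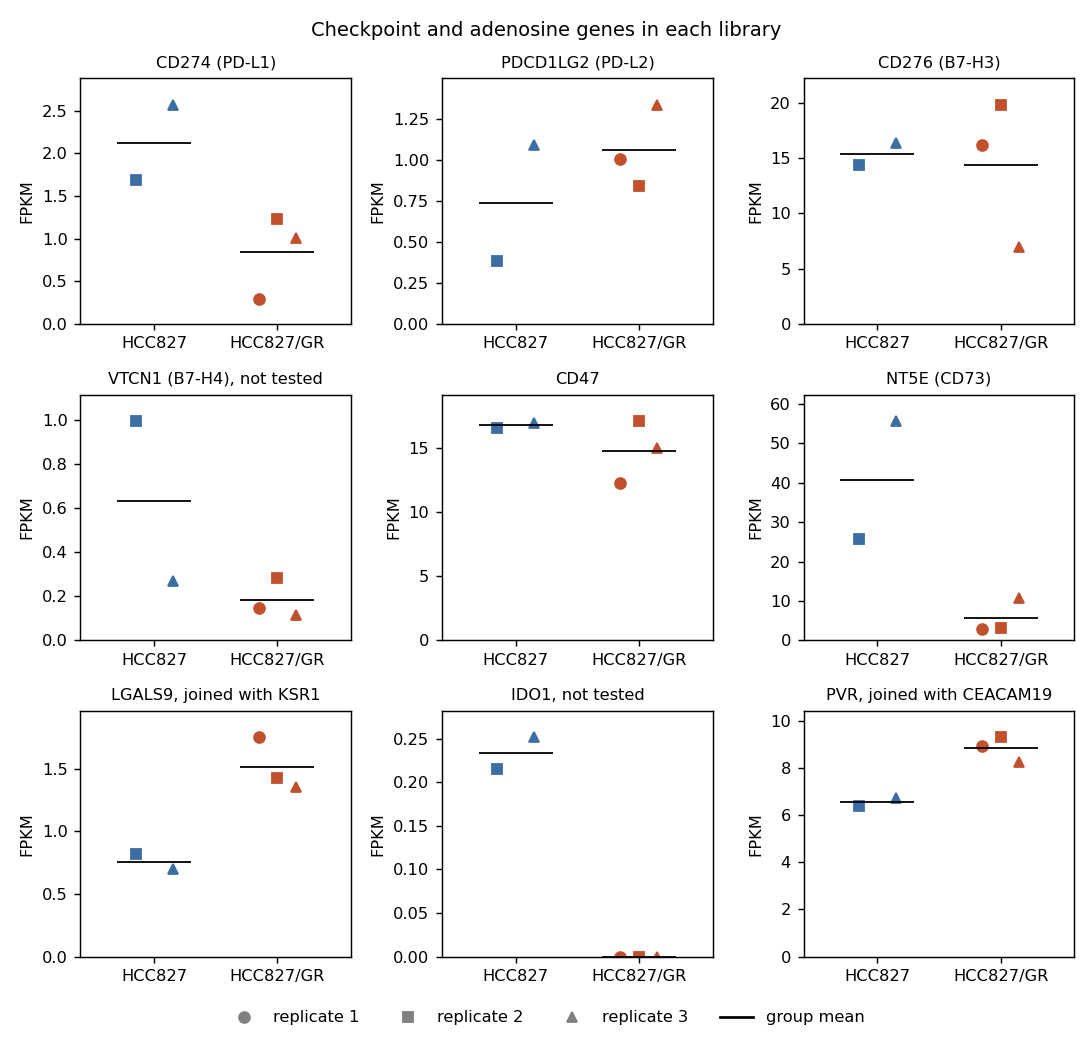
Level of 9 members in each library in FPKM (vertical axes, linear and starting at 0; scales differ), for HCC827 (blue, n = 2) and HCC827/GR cells (orange, n = 3). Marker shape gives the replicate number and the bar the group mean. NT5E stood at 25.7 and 55.7 FPKM in HCC827 and between 2.78 and 10.6 FPKM in HCC827/GR cells, without overlap, and PVR and LGALS9 are shown as the loci that join them with other genes.

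In HCC827 cells the order of levels by FPKM began with NT5E, CD47 and CD276 in both libraries, followed by CD274. CD47 and CD276 lay close together there, at means of 16.7 and 15.4 FPKM. In HCC827/GR cells NT5E ranked behind CD47 in all 3 libraries and behind CD276 as well in replicates 1 and 2. CD274 ranked 4 among the members in both HCC827 libraries and 5 or 6 in the HCC827/GR libraries, where the LGALS9 locus stood above it each time. The ranges of PDCD1LG2 and CD274 overlapped in HCC827/GR cells, so their order is not fixed by these libraries.

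In HCC827/GR cells 4 of the 6 tested members were lower and 2 higher. Their median log2 difference was -0.19, against 0.0014 over all rows tested. The 2 groups did not overlap for 2 members on the lower side and 1 on the higher side. Over all rows tested, 23.4% did not overlap on the lower side and 22.8% on the higher side, so such separation was common. The exact permutation test of 3 against 2 libraries cannot give a p under 0.1, which is what CD274, NT5E and the LGALS9 locus reached; PDCD1LG2 had 0.5, CD47 0.4 and CD276 0.9 (two-sided).

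**Figure D2:**
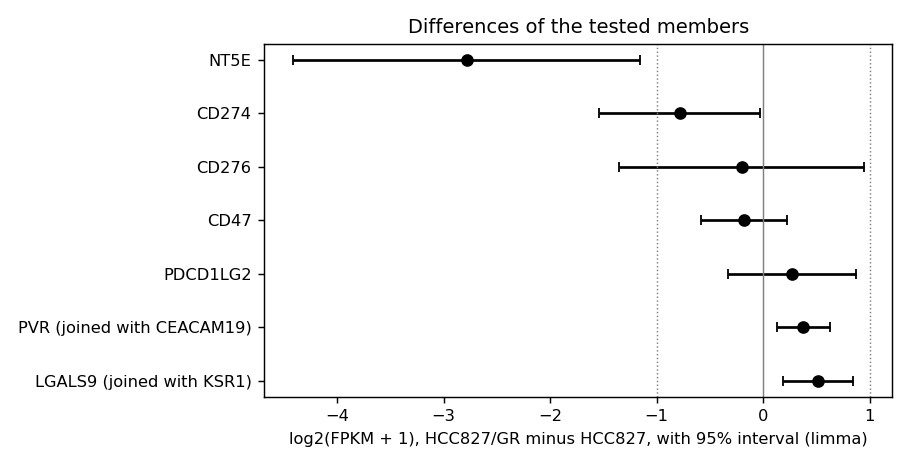
Log2(FPKM + 1) difference, HCC827/GR minus HCC827 (horizontal axis), of the 6 tested members and of the locus that holds PVR; points are limma estimates, bars 95% intervals, and dotted lines mark a log2 difference of 1 in each direction. The interval of NT5E (-4.42 to -1.15) lies below the lower dotted line, and those of CD276, CD47 and PDCD1LG2 cross 0.

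The neighbours of CD274 and PDCD1LG2 on chromosome 9 were examined because this segment can change in copy number as a unit. Of 20 listed neighbours, 17 had a row and 13 were tested, of which 10 were lower, 3 higher and 1 passed an adjusted p of 0.05, with a median log2 difference of -0.30. The one that passed was UHRF2, a ubiquitin ligase gene 963 kb from CD274, which fell from 6.10 to 4.08 mean FPKM (log2 difference -0.49, adjusted p = 0.0486). The adjusted p ran from 0.0652 to 0.167 with any 1 of the 5 libraries left out, so the call rests on all of them. ERMP1 was at -0.55 (adjusted p = 0.0702). Of all rows tested, 5.71% passed an adjusted p of 0.05 on the lower side. The groups did not overlap for 6 of the 13 on the lower side and 1 on the higher side. Over all rows tested, 23.4% did not overlap on the lower side and 22.8% on the higher side. PLGRKT, a plasminogen receptor gene and the tested neighbour nearest CD274 upstream, was at -0.10 (adjusted p = 0.830). Next came RLN2, a relaxin gene with the close copy RLN1, at -0.54 (adjusted p = 0.159), RIC1 at -0.38 (adjusted p = 0.0880) and, farther off, JAK2, the kinase of the interferon gamma receptor, at -0.11 (adjusted p = 0.592). RLN2 and RIC1 were lower in all 3 HCC827/GR libraries than in both HCC827 libraries, and both were named after their values were seen. CD274 and PDCD1LG2 thus carried estimates of opposite sign within 60.1 kb, though the interval of PDCD1LG2 includes 0. No DNA copy number was measured in these files.

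**Figure D3:**
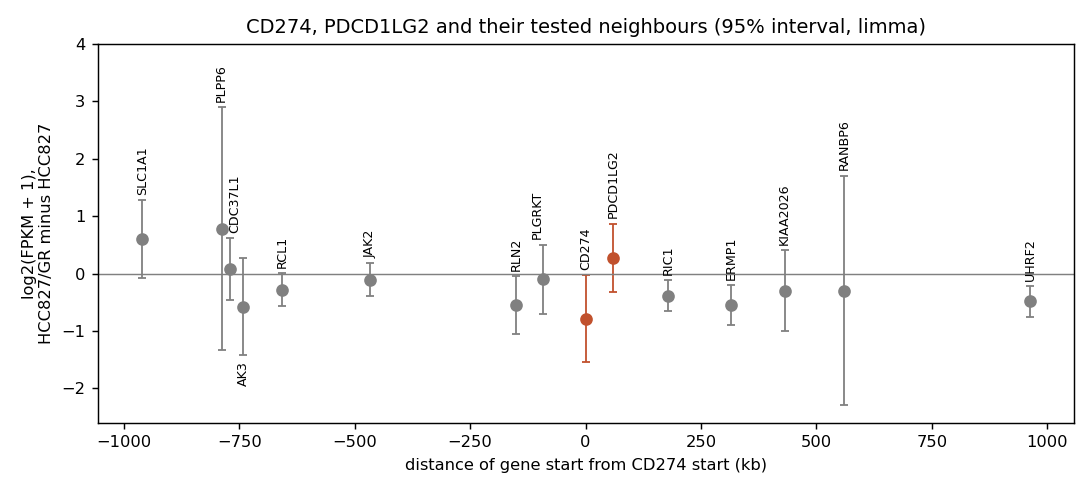
Log2(FPKM + 1) difference, HCC827/GR minus HCC827 (vertical axis), against the distance of each gene's start from that of CD274 in kb (horizontal axis); bars are 95% limma intervals, CD274 and PDCD1LG2 are orange. CD274 is at -0.78 and PDCD1LG2 at 0.27, while JAK2 and PLGRKT are at -0.11 and -0.10.

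The pathway partners of the members were taken from 8 lists of 159 genes, of which 137 had a row and 91 were tested. In all, 6 were higher and 9 lower in HCC827/GR cells at an adjusted p under 0.05. Over all rows tested, 5.26% passed higher and 5.71% lower, and the counts of each list below are to be read beside these shares. Among other B7 and PD-1 family genes, 9 of 23 were tested and 1 passed. This was HHLA2, a B7 protein that engages receptors on T and NK cells, at 3.53 and 3.62 FPKM in HCC827 and 0.0777, 0.171 and 0.0970 FPKM in HCC827/GR cells. Its mean was 31.1-fold lower in HCC827/GR cells (log2 difference -2.04, SE 0.11, adjusted p = 0.00275), and the call held with any 1 library left out. It was lost with the Ballgown-style covariate (adjusted p = 0.113) and with the replicate number as a block (0.124), as were all 15 calls of listed partners. HHLA2 lies on chromosome 3 at 108296490-108378285, near CD47 at 108043094-108091862, which did not separate the groups. BTN2A2, a butyrophilin that restrains T cells, was at 0.39 (adjusted p = 0.136). PD-1 itself (PDCD1) was listed at 0 in HCC827 cells and at 0.137, 0.0523 and 0.0729 FPKM in HCC827/GR cells.

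In the CD47 and phagocytosis list 8 of 13 genes were tested (median log2 difference 0.47). At an adjusted p under 0.05, 2 rose and none fell. SIRPA, which encodes the receptor that CD47 binds and is known mainly from myeloid cells, rose from 1.61 and 1.71 FPKM to 5.86, 6.503 and 7.19 FPKM. This was a 3.93-fold higher mean (log2 difference 1.5, SE 0.11, adjusted p = 0.00546). THBS1, which encodes thrombospondin-1, a secreted ligand of CD47, rose from 33.0 and 38.6 FPKM to 391, 267 and 425 FPKM, a 10.1-fold higher mean (log2 difference 3.27, SE 0.24, adjusted p = 0.00521). Both calls held with any 1 library left out but not with the Ballgown-style covariate (adjusted p = 0.0704 for SIRPA and 0.189 for THBS1) or the replicate number as a block (0.124 for both). QPCTL, the enzyme that modifies CD47 so that SIRPα can bind it, was at 0.28 (adjusted p = 0.250). So SIRPA and THBS1, which encode binding partners of CD47, were higher in all 3 HCC827/GR libraries, while CD47 itself overlapped between the groups.

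All 24 PD-L1 regulators with a row were tested, with a median of -0.04. At an adjusted p under 0.05, 1 rose and 3 fell. IRF1, the interferon-induced factor that acts on CD274, was at -0.13 (adjusted p = 0.673). CMTM4, a membrane protein that protects PD-L1 from degradation, fell by 1.03 on the log2 scale (adjusted p = 0.0154). Its relative CMTM6 measured 37.3 and 30.8 FPKM in HCC827 and 27.7, 28.0 and 4.86 FPKM in HCC827/GR cells, with HCC827/GR replicate 3 far below the rest (log2 difference -1.04, adjusted p = 0.463). COPS5, a deubiquitinase subunit that acts on PD-L1, fell by 0.75 (adjusted p = 0.0173) in a row joined with PPP1R42, and CDK5, a kinase linked to PD-L1 control, rose by 0.59 (adjusted p = 0.0397). With any 1 library left out the adjusted p of CDK5 ran from 0.0614 to 0.115, and CMTM4 and COPS5 kept an adjusted p under 0.05 only without HCC827/GR replicate 3, reaching 0.0824 otherwise.

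In the adenosine and extracellular nucleotide list 18 of 36 genes were tested, with a median of -0.10. Of these, 1 rose and 2 fell at an adjusted p under 0.05. A row named ALPPL2, which joins placental-type alkaline phosphatases that can also strip phosphate from AMP, fell from 27.1 and 23.1 FPKM to 6.12, 5.28 and 2.70 FPKM (log2 difference -2.25, adjusted p = 0.0200). ENTPD6, a nucleoside diphosphatase of the CD39 family, fell by 0.51 (adjusted p = 0.0382), and ENTPD4, joined with LOXL2, rose by 0.73 (adjusted p = 0.0217). With 1 library left out, the ALPPL2 and ENTPD4 rows kept their calls only without HCC827/GR replicate 3 (adjusted p up to 0.119 and 0.0984), and ENTPD6 ran from 0.0685 to 0.127. ADA, which breaks adenosine down, was at 3.37 and 2.81 FPKM in HCC827 and 5.31, 5.16 and 4.50 FPKM in HCC827/GR cells (adjusted p = 0.0525). DPP4, the surface protein that anchors ADA, was at -0.50 (adjusted p = 0.167). The adenosine receptor gene ADORA2B, read from a row joined with TTC19, was at 0.14 (adjusted p = 0.521).

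In the nectin and TIGIT list 6 of 10 genes were tested. At an adjusted p of 0.05, 0 passed by limma or by the Ballgown-style model. An unadjusted limma p under 0.05, which was common over all rows tested, was reached by 4. The median was 0.45. NECTIN2, which shares the TIGIT and CD226 receptors with PVR, was at 0.55 (adjusted p = 0.0759) and was higher in all 3 HCC827/GR libraries. NECTIN4 was at -1.13 (adjusted p = 0.0548), at 1.87 and 0.768 FPKM in HCC827 and at most 0.0443 FPKM in HCC827/GR cells. CADM1, an adhesion molecule read by the lymphocyte receptor CRTAM, was at 0.81 (adjusted p = 0.0715). TIGIT did not exceed 0.0306 FPKM in any library.

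The galectin list had 7 of 16 genes tested and 0 passed by either model. Of the 7, 3 had an unadjusted limma p under 0.05, which was common over all rows tested. The median was 0.29. LGALS3BP, a secreted galectin-binding glycoprotein, was at 0.75 (adjusted p = 0.111) and CEACAM1 at -0.55 (adjusted p = 0.0649). The row named HAVCR2 held no reference transcript, and the row that holds its 1 reference transcript, named MED7, ran from 0.0869 to 0.153 FPKM. LGALS9B and LGALS9C, near copies of LGALS9 between which reads can be shared, stood at 0.00776 FPKM or less.

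In the tryptophan and kynurenine list 7 of 16 genes were tested, with a median of 0.16. Of these, 2 rose and 2 fell at an adjusted p under 0.05. SLC7A5, the large neutral amino acid transporter that carries tryptophan and kynurenine, rose from 241 and 94.8 FPKM to 754, 749 and 689 FPKM (log2 difference 2.26, SE 0.41, adjusted p = 0.0355). Its heavy chain SLC3A2 rose from 49.0 and 58.7 FPKM to 108, 113 and 118 FPKM (1.06, SE 0.12, adjusted p = 0.0122). WARS, an interferon-inducible tryptophanyl-tRNA synthetase, fell from 26.0 to 15.6 mean FPKM (-0.71, adjusted p = 0.0385), and ACMSD, an enzyme further down the kynurenine route, fell from 1.18 to 0.208 mean FPKM (-0.84, adjusted p = 0.0389). With 1 library left out, SLC7A5 kept its call in 2 of 5 fits, SLC3A2 in 3, WARS in 1 and ACMSD in 0, at adjusted p values up to 0.112, 0.0552, 0.149 and 0.104. KYNU was under the minimum, at 0.284 to 0.392 FPKM. The receptor gene AHR, found after the values were seen in a row joined with KCCAT333, fell from 49.6 and 44.3 FPKM to 29.2, 29.7 and 30.8 FPKM (log2 difference -0.63, SE 0.10, adjusted p = 0.0245; 0.0546 to 0.0913 with 1 library left out).

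**Figure D4:**
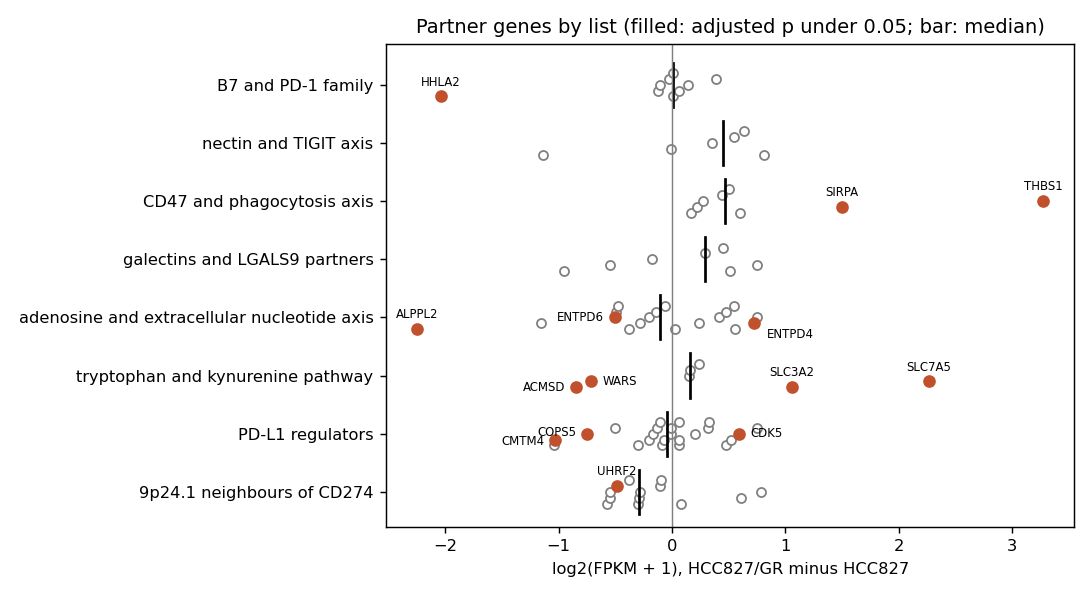
Log2(FPKM + 1) difference, HCC827/GR minus HCC827 (horizontal axis), of each tested partner gene reported here, by list (rows; vertical jitter separates points); filled points passed an adjusted p of 0.05 and the bars are medians of all tested genes of a list. THBS1 (3.27) and SIRPA (1.5) stand to the right in the CD47 list, and HHLA2 (-2.04) to the left in the B7 list.

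**Figure D5:**
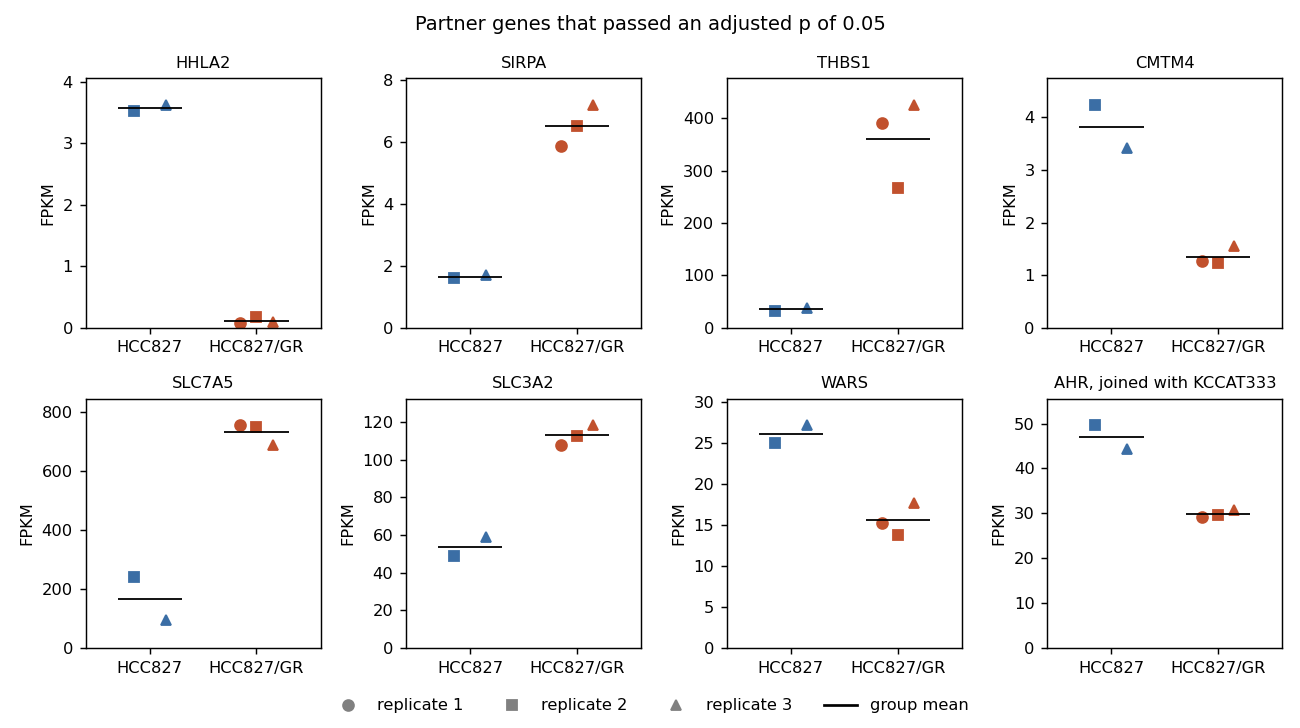
Level in FPKM (vertical axes, linear and starting at 0; scales differ) of 8 partner rows that passed an adjusted p of 0.05, for HCC827 (blue, n = 2) and HCC827/GR cells (orange, n = 3), with marker shape for the replicate and a bar for the mean. In no panel do the groups overlap, and SLC7A5 shows the wide gap between the HCC827 libraries, at 241 and 94.8 FPKM.

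Genes whose profile was most like that of a member were sought by the root mean square difference of centred log2(FPKM + 1) over the 5 libraries. For CD274 they were a row named AC017037.3 with no reference transcript (0.0538), LYRM1 (0.0839) and a row named LINC00511 with no reference transcript (0.0925). For NT5E they were AC131238.1 (0.330), VOPP1 (0.341) and MALL (0.474). VOPP1 measured 43.0 and 52.9 FPKM in HCC827 and 3.83, 2.43 and 12.2 FPKM in HCC827/GR cells, and like NT5E it was least reduced in HCC827/GR replicate 3.

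The libraries were also examined for markers of cells. The 7 lung adenocarcinoma line marker rows summed to 1139 and 1243 FPKM in HCC827 and to between 447 and 579 FPKM in HCC827/GR cells. None was at 0, and all 7 were lower in HCC827/GR cells, 6 of them at an adjusted p under 0.05 by limma. Of all rows tested, 5.71% passed on the lower side. Of these 6 markers, EPCAM kept its call with any 1 library left out and KRT18 lost it each time. Over all alternatives the adjusted p of EPCAM reached 0.171. The 14 lymphoid and myeloid marker rows that hold 1 coding gene summed to 2.28 and 2.24 FPKM in HCC827 cells. In HCC827/GR cells they summed to between 0.798 and 1.18 FPKM. The pan-leukocyte gene PTPRC did not exceed 0.0228 FPKM in any library. The lymphoid and myeloid markers tested were CD68 and CD163, both in rows that join coding genes and so outside the 14. In all, these 2 markers and 2 stromal ones were tested. The only one that passed, lower in HCC827/GR cells, was a row named PECAM1 with no reference transcript. The 9 stromal and endothelial rows with a reference transcript summed to between 0.859 and 1.28 FPKM in all libraries. Of the lymphoid and myeloid sums in HCC827 replicates 2 and 3, 1.08 and 1.03 FPKM came from the B-cell gene CD79A. The myeloid markers ITGAM, ITGAX, CD14 and CSF1R were under the minimum for testing and differed in direction. ITGAM was at 0.0263 and 0.0456 FPKM in HCC827 and 0.107, 0.133 and 0.270 FPKM in HCC827/GR cells, and ITGAX was at 0.126 and 0.0944 FPKM against 0.229, 0.203 and 0.239 FPKM. CD14 and CSF1R were lower in all 3 HCC827/GR libraries than in both HCC827 libraries. The part of such cells in the level of SIRPA was not tested.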

How the data were processed

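RNA from 3 HCC827/GR and 2 HCC827 libraries was measured by sequencing. The authors deposited FPKM values per gene or assembled locus. Per the paper's methods and the submitters' processing notes, Cutadapt trimmed and FastQC checked the reads, TopHat2 and Bowtie2 mapped them, and StringTie with Ballgown assembled transcripts and estimated FPKM. Versions are not given in the sources used here, and the notes name the build hg18. The labels describe a small-RNA, single-end library, whereas the methods describe an mRNA library. A further FPKM column (1 in all) could not be tied to a sample and was not used.

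FPKM carries no read counts, so depth is unknown; low values gave relative depths of 0.922 to 1.26 against HCC827/GR replicate 1, and whole reads could not be recovered. The labels give no batch.

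The fit was limma 3.58.1 in R 4.3.3 (two-sided; lmFit, then eBayes with trend) applied to log2(FPKM + 1), over 16189 rows with a mean of at least 0.5 FPKM, with Benjamini-Hochberg adjustment over all of them. Genes of each row came from 135164 of 135299 Ensembl transcripts found in GENCODE 29. Sequences came from RefSeq. Of the members, 8 had a promoter window. Only that of CD274 is printed, cut to end before the first annotated start. On simulated data of 16189 rows the fit called 70 of 100 rows changed by a log2 of 1, 100 of 100 changed by a log2 of 2, and 4 unchanged rows. The changed rows were drawn only from those with a mean log2(FPKM + 1) above 2. CD274, PDCD1LG2 and the LGALS9 locus lie below that level, so these counts do not describe them.

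Members and lists were chosen with earlier results of these data known. Named were all members, up to 4 called genes of each list with the largest difference (where fewer than 2 were called, the 2 with the smallest adjusted p), the best-known partners and the 3 most similar rows for CD274 and NT5E. A further gene under this rule is left unreported. Alternatives were a pseudocount of 0.1, no minimum, a minimum of 1 FPKM, median-ratio scaling, quantile normalization, no trend, a Ballgown-style covariate, the replicate number as a block, rows of a symbol summed, a ratio of means and each library left out.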

Additional observations from a re-analysis of the deposited data

How the results depend on the processing

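CD274, CD47, NT5E and the LGALS9 locus kept their direction under every alternative run. Members with an adjusted p under 0.05 were 0, and 1 without a minimum (IDO1), 1 after quantile normalization (LGALS9, 0.58) and 0 to 1 when a library was left out (NT5E, -3.33 to -2.24, past it without HCC827/GR replicate 3). CD276 ran from -0.48 to 0.21 and PDCD1LG2 from -0.027 to 0.57 when a library was left out. CD276 was at 0.17 with the Ballgown-style covariate. As log2 ratios of the mean FPKM, CD274 was -1.33, PDCD1LG2 0.53 and the LGALS9 locus 1.00. CD68, in a row joining several genes, turned to -0.017 after quantile normalization and to -0.060 with the covariate. When a library was left out CD68 ran from -0.14 to 0.19 and COL1A1 from -0.029 to 0.29; neither passed the test.

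Rows with an adjusted p under 0.05 (851 higher, 924 lower) numbered 4 and 9 with the Ballgown-style covariate and 202 to 485 and 287 to 477 when a library was left out. Partner genes called (6 higher, 9 lower) numbered 0 and 0 with the covariate and 2 to 4 and 1 to 6 when a library was left out. By fold and unadjusted p, 860 rows were higher and 1024 lower with a pseudocount of 0.1, and 919 and 1201 with the fold of the mean FPKM, added after the data were seen. With the replicate number as a block, 0 rows and 0 partner genes were called in either direction, and NT5E was at -2.49 (adjusted p = 0.124). Same-numbered libraries deviated together with r of 0.0328 and 0.0147 over only 2 pairs. The 2 HCC827 deviations mirror each other, so these values are not separate checks and cannot show whether the libraries were paired. The causes were not tested. HHLA2, SIRPA and THBS1 were called in each fit that left out a library. With 2 HCC827 libraries and no read counts, intervals are wide and low genes such as VTCN1 and IDO1 cannot be resolved.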
